A study of Sus scrofa with 21 samples.

Results

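The genes described here are those of glucose uptake, glycolysis, lactate handling, pyruvate entry into the citric acid cycle and glycogen turnover, measured by RNA sequencing in the hearts of 21 newborn to 4-week-old pigs (Sus scrofa). They were chosen by name: of 41 listed symbols, 36 matched the gene name of a row among the 25880 genes of the deposited count table, and where a symbol had several rows (LDHB) the one with the highest total count was used. Another 3, ALDOA, LDHA and PDHA1, had a row without a name and were found by gene ID, so they are described but not counted among the 36. The glucose transporters SLC2A1 and SLC2A3 were not analysed here. Of the 36, 35 passed the filter on low counts, and PFKFB1 (57 reads over all libraries) did not. The 8 groups comprised infarcted hearts, in which a myocardial infarction (MI) dated from postnatal day 1, taken on day 7 (n = 3), 14 (n = 3) or 28 (n = 2), and naive hearts taken on day 1 (n = 2), 3 (n = 2), 7 (n = 3), 14 (n = 3) or 28 (n = 3). The infarct was made by tying off the left descending coronary artery for good, and the tissue sampled bordered the ischaemic area, or was the same region in hearts without an infarct. Controls are named naive in the titles, whereas the protocol has them operated on without the tie, and the labels do not settle which applies. All pigs were raised on colostrum and milk in an incubator, and each library came from 1 pig, so p-values measure the spread between pigs.

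Glycolysis splits glucose into pyruvate in the cytosol, and most of its steps can be run by several isoenzymes that differ between tissues. The newborn heart is known for a high reliance on glycolysis and lactate, and after birth it comes to depend mainly on fatty acids, with pyruvate dehydrogenase and its kinases setting how much pyruvate is oxidised. Hypoxia is known to raise many glycolytic genes through HIF factors, and inflammatory cells, fibroblasts and myocytes carry different isoenzymes, so the isoform present at a step can differ when the cells of a tissue differ.

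Total counts ran from 37002909 to 95559841 per library. The 36 genes and the 3 found by gene ID together took 1.7% to 3.13% of them. Mitochondrially encoded genes took 15.8% to 34.6%, the most in MI day 28 replicate 1. Within groups, libraries correlated at r = 0.929 to 0.991 across genes. Among the libraries, 4 stood apart. These were the third MI library of day 7, the second MI library of day 28, the third naive library of day 14 and the second naive library of day 28, and they had 5.32 to 11.6 CPM (read counts scaled to the library's size) of the unnamed gene ENSSSCG00000035520, against 3180 to 7210 CPM in the other 17. The labels name no library batch, so they are called the second set. Results of the members and isoform ratios that change without them are given both ways. The marker lists and the lists of neighbouring pathways were not refitted without them. Of 11 cardiomyocyte markers found, 10 were detected in every library, and the row named TNNI3 was at 0 in all 21. Of 6 skeletal muscle markers found, CKM, which heart also expresses, was abundant, and TNNI2, the highest of the other 5, reached 1.34 CPM (MYLPF was at 0 in all 21 libraries). The summed level of 11 cardiomyocyte markers on day 28 was 52230 and 40567 CPM in MI hearts, against 81332, 92730 and 90518 CPM in naive hearts. A macrophage and monocyte list of 9 genes summed to 273 and 2898 CPM in the MI hearts of that day, against 296, 313 and 60.1 CPM in naive hearts. In bulk tissue, fewer cells of a type and less RNA per cell cannot be told apart.

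Between MI and naive hearts, members were called in both directions. On day 28 more fell than rose, with a log2 fold change below 0 for 23 of the 35 tested and above 0 for 12. Those called higher in MI hearts were low-level isoforms. HK3, ENO2 and the regulator PFKFB3 were called on day 28 and on the mean over days, and HK2 on that mean only. Of those called lower, the pyruvate dehydrogenase subunit PDHB and the liver-type phosphorylase PYGL were called in both comparisons. The main hexokinase HK1, the lactate carrier SLC16A1 and the glycogen synthase GYS1 were called lower on day 28 only. Calls are made at an adjusted p below 0.05 in edgeR's quasi-likelihood test, the adjustment (Benjamini-Hochberg) being over all 15359 genes tested. On day 28, 8 of the 35 members were called (22.9%), 3 higher and 5 lower, against 6.86% of all genes tested (4.47% higher, 2.38% lower). On the mean of the MI effect over days 7, 14 and 28, which uses all 8 MI pigs, 6 were called (17.1%), 4 higher and 2 lower, against 4.43% of all genes (2.36% higher, 2.07% lower). An unadjusted p under 0.05 was found for 17 members on day 28 (background 27%) and for 13 on the mean (background 23.1%). On day 7 and on day 14 no member was called (0 of 35, with 0% of all genes called by edgeR on either day), while 5 members on each day had an unadjusted p under 0.05, against 12.4% of all genes on day 7 and 5.35% on day 14. DESeq2 also called 0 members on those days, against 1.77% of the genes it tested on day 7 and 0.0776% on day 14. It called 12 members on day 28 (background 14.4%) and 8 on the mean (background 10.3%). The median log2 fold change of the members was 0.05 on day 7, 0.07 on day 14 and -0.45 on day 28, beside 0.03, -0.0068 and 0.0048 over all genes tested. On day 28, the MI and naive values of 17 members did not overlap with MI lower and those of 4 with MI higher, while 21.4% and 16.4% of all genes did so (37.8% in either direction). On day 7 it was 3 members with MI lower and 3 with MI higher (background 10.4% and 13.9%, 24.3% together), and on day 14 it was 1 and 3 (background 4.49% and 3.73%, 8.22% together). The change of the MI effect between days was called for 0 members, both for day 14 minus day 7 (0.00651% of all genes called, all of them lower) and for day 28 minus day 7 (0.013% called, 0.00651% in each direction). An unadjusted p under 0.05 was found for 1 member in the day 14 contrast (background 7.07%) and for 8 in the day 28 contrast (background 19%). DESeq2 called 0 members for day 14 minus day 7 (background 0.248%) and 2, PFKFB3 and PYGB, for day 28 minus day 7 (background 4.54%).

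**Figure D1:**
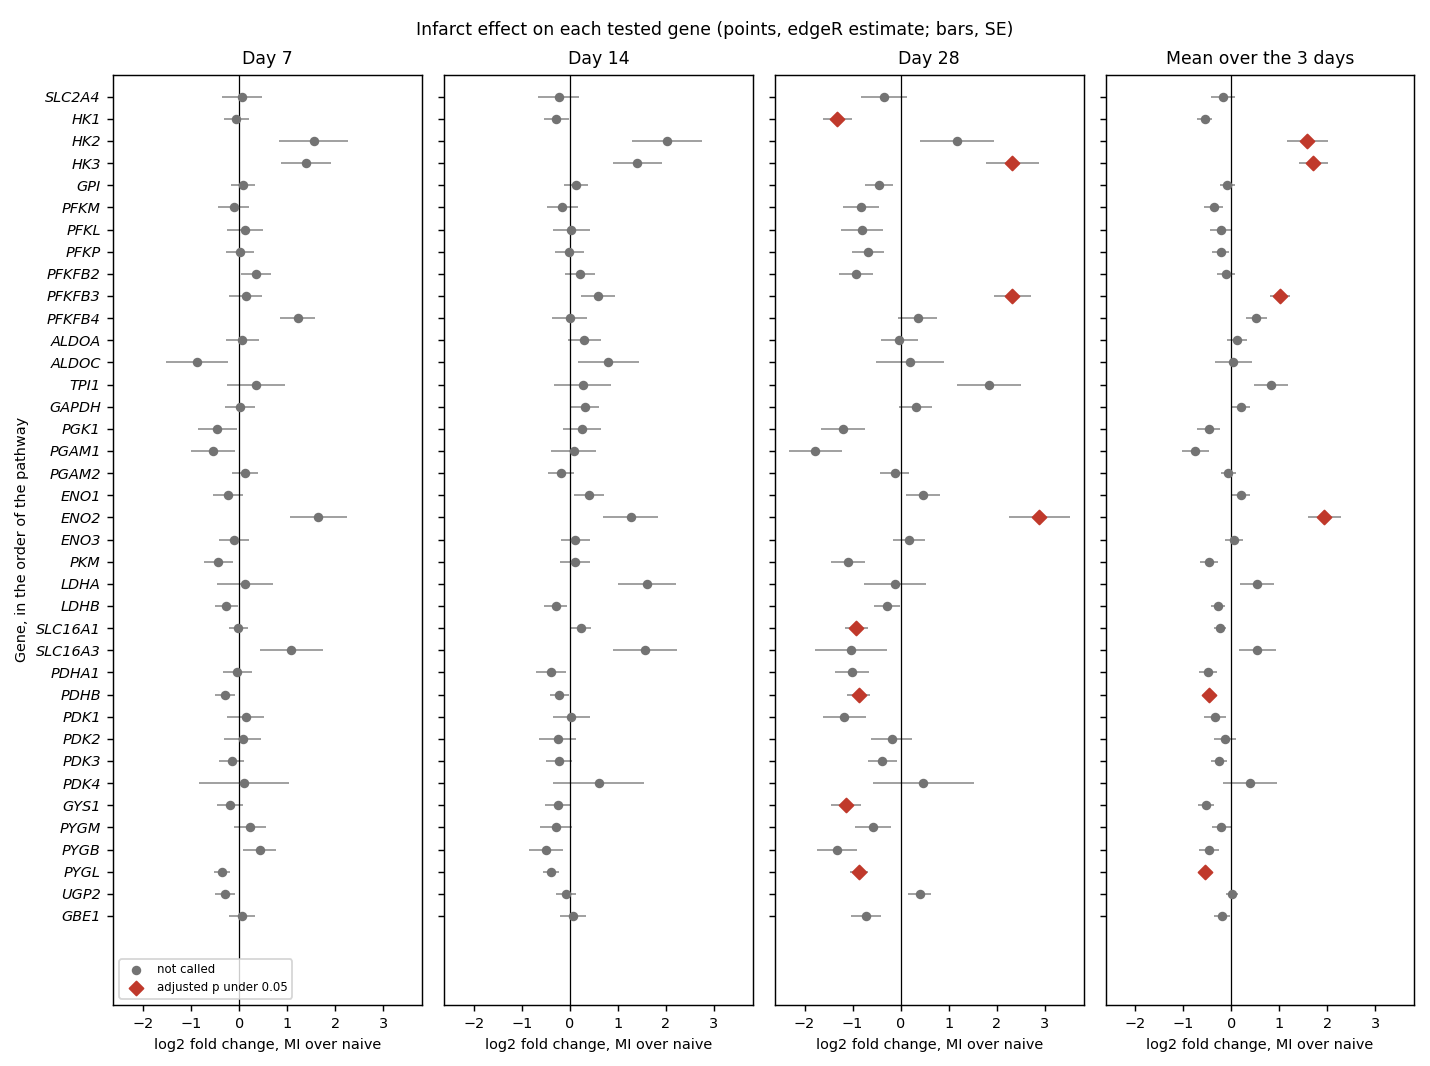
Log2 fold changes of MI over naive hearts for each member on days 7, 14 and 28, with bars for the standard error and red diamonds for genes called by edgeR, beside grey circles for the others; the last panel is the mean over the 3 days. On days 7 and 14 the values scatter around 0 with none called, and on day 28 most lie below 0, while HK3, PFKFB3 and ENO2 lie above 2.

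The day 28 calls rest on few pigs. Leaving out 1 library at a time left 0 to 3 calls: 3 without MI replicate 1 (1162 of all genes called), 3 without MI replicate 2 (863 of all genes), 2 without naive replicate 1 (314), 1 without naive replicate 2 (169) and 0 without naive replicate 3 (17). A fit to the 5 libraries of day 28 alone called 0 members and 2 of all genes, and a fit without the second set called 4, of which 3 were among the 8 and PGAM1 (log2 fold change -2.77, adjusted p = 0.0308) was not.

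SLC2A4 (GLUT4), the insulin-responsive glucose transporter, was the only listed glucose transporter analysed here, so its values do not cover all glucose uptake. Its level in MI hearts was 94.4, 118 and 121 CPM on day 7, 109, 60.5 and 129.6 CPM on day 14 and 126 and 45.4 CPM on day 28. In naive hearts it was 108 and 104 CPM on day 1, 57 and 87.8 CPM on day 3, 129.6, 80.1 and 110.3 CPM on day 7, 73.3, 111 and 168 CPM on day 14 and 84.1, 182 and 60.4 CPM on day 28. The groups overlapped on every shared day, SLC2A4 was called in none of the 9 comparisons, and the lowest library of all was MI day 28 replicate 2.

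Hexokinases trap glucose in the cell as glucose 6-phosphate. HK1, the housekeeping form, carries most hexokinase RNA in these hearts, HK2 is the insulin- and hypoxia-responsive form of muscle, and HK3 is best known from blood cells. Per kilobase of exon, HK1 made up a median 94.3% of hexokinase RNA in MI hearts and 98.5% in naive hearts of all ages, and HK2 made up 5.07% and 1.23%. HK2 had 29.2, 26.9 and 7.18 CPM in MI hearts on day 7, against 6.17, 8.76 and 6.61 CPM in naive hearts. On day 14 the MI hearts had 28.8, 11.5 and 23.2 CPM of HK2, against 3.51, 7.17 and 4.86 CPM in naive hearts, and the groups did not overlap. On day 28 the HK2 values were 27.3 and 4.35 CPM in MI hearts, against 5.29, 7.5 and 8.26 CPM in naive hearts. Thus 6 of the 8 MI libraries lay above all 9 naive libraries of the same days, and the other MI libraries, at 7.18 and 4.35 CPM, were both of the second set. Averaged over days, HK2 was 3-fold higher in MI hearts (log2 fold change 1.59, SE 0.43, adjusted p = 0.0455 by edgeR). It stayed called in 2 of 17 fits that left out a library, with log2 fold changes between 0.97 and 1.85, and without the second set the value was 1.98 (adjusted p = 0.0369). Younger naive hearts spanned the widest range of HK2, with 9.75 and 62.4 CPM on day 1 and 6.88 and 1.79 CPM on day 3.

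HK1 had 234 and 244 CPM in MI hearts on day 28, the 2 lowest values of the series, against 589.8, 499.8 and 693 CPM in naive hearts. It was lower in MI hearts on that day (log2 fold change -1.31, SE 0.31, adjusted p = 0.0266 by edgeR). The earlier groups overlapped, with 439, 580.5 and 612 CPM in MI and 572, 597 and 533 CPM in naive hearts on day 7, and 619, 412 and 319.6 CPM in MI and 341, 693 and 607 CPM in naive hearts on day 14. Naive hearts of day 1 had 485 and 499 CPM and those of day 3 had 684 and 499 CPM. The HK1 call on day 28 was lost in each of the 5 fits without 1 library, with adjusted p between 0.0509 and 0.0934 and log2 fold changes between -1.40 and -1.19, and also without the second set (-1.45, adjusted p = 0.0691).

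HK3 had 2.11 and 9.99 CPM in MI hearts on day 28, against 1.3, 0.976 and 1.32 CPM in naive hearts. The fold change was 5.03 (log2 2.33, SE 0.56, adjusted p = 0.0289 by edgeR), and without MI replicate 2, which carries the macrophage sum of 2898 CPM, it was 0.84 on the log2 scale (adjusted p = 0.392). The HK3 call of day 28 held in 1 of the 5 fits without 1 library and was lost without the second set (0.70, adjusted p = 0.537). On day 14 HK3 had 3.24, 7.8 and 2.65 CPM in MI and 2.65, 1.08 and 1.46 CPM in naive hearts, the lowest MI value being the higher of the pair that round to 2.65 CPM, and on day 7 it had 2.83, 3.55 and 2.69 CPM in MI and 1.35, 0.891 and 1.22 CPM in naive hearts, without overlap. Averaged over days, HK3 was 3.27-fold higher in MI hearts (log2 fold change 1.71, SE 0.31, adjusted p = 0.0144), a call kept in all 17 fits without 1 library and lost without the second set (1.15, adjusted p = 0.0726). Naive hearts had 3.56 and 2.03 CPM of HK3 on day 1 and 1.36 and 1.61 CPM on day 3. Of the macrophage and monocyte genes, 7 of 9 were called higher on day 28 (4.47% of all genes). Of the neutrophil list, 4 of 5 genes tested were called higher on the mean over days (2.36% of all genes). In the single libraries these lists and HK3 went together in part. On day 7, where HK3 did not overlap, the macrophage list summed to 387, 204 and 335 CPM in MI hearts, against 377, 366 and 350 CPM in naive hearts, and on day 28 only MI replicate 2 lay above the naive range of that list. The neutrophil list summed to 3.25, 1.71 and 31.8 CPM in MI hearts of day 7, the last being the library with the least HK3 of that group. It summed to 1.36, 24.5 and 2.02 CPM in MI hearts of day 14, where the library with 24.5 CPM had the most HK3. On day 28 the MI hearts had 5.25 and 38.9 CPM of it. Naive hearts of day 28 had 0.88 to 1.07 CPM of the neutrophil list. The part of these cells in the HK3 result was not tested.

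**Figure D2:**
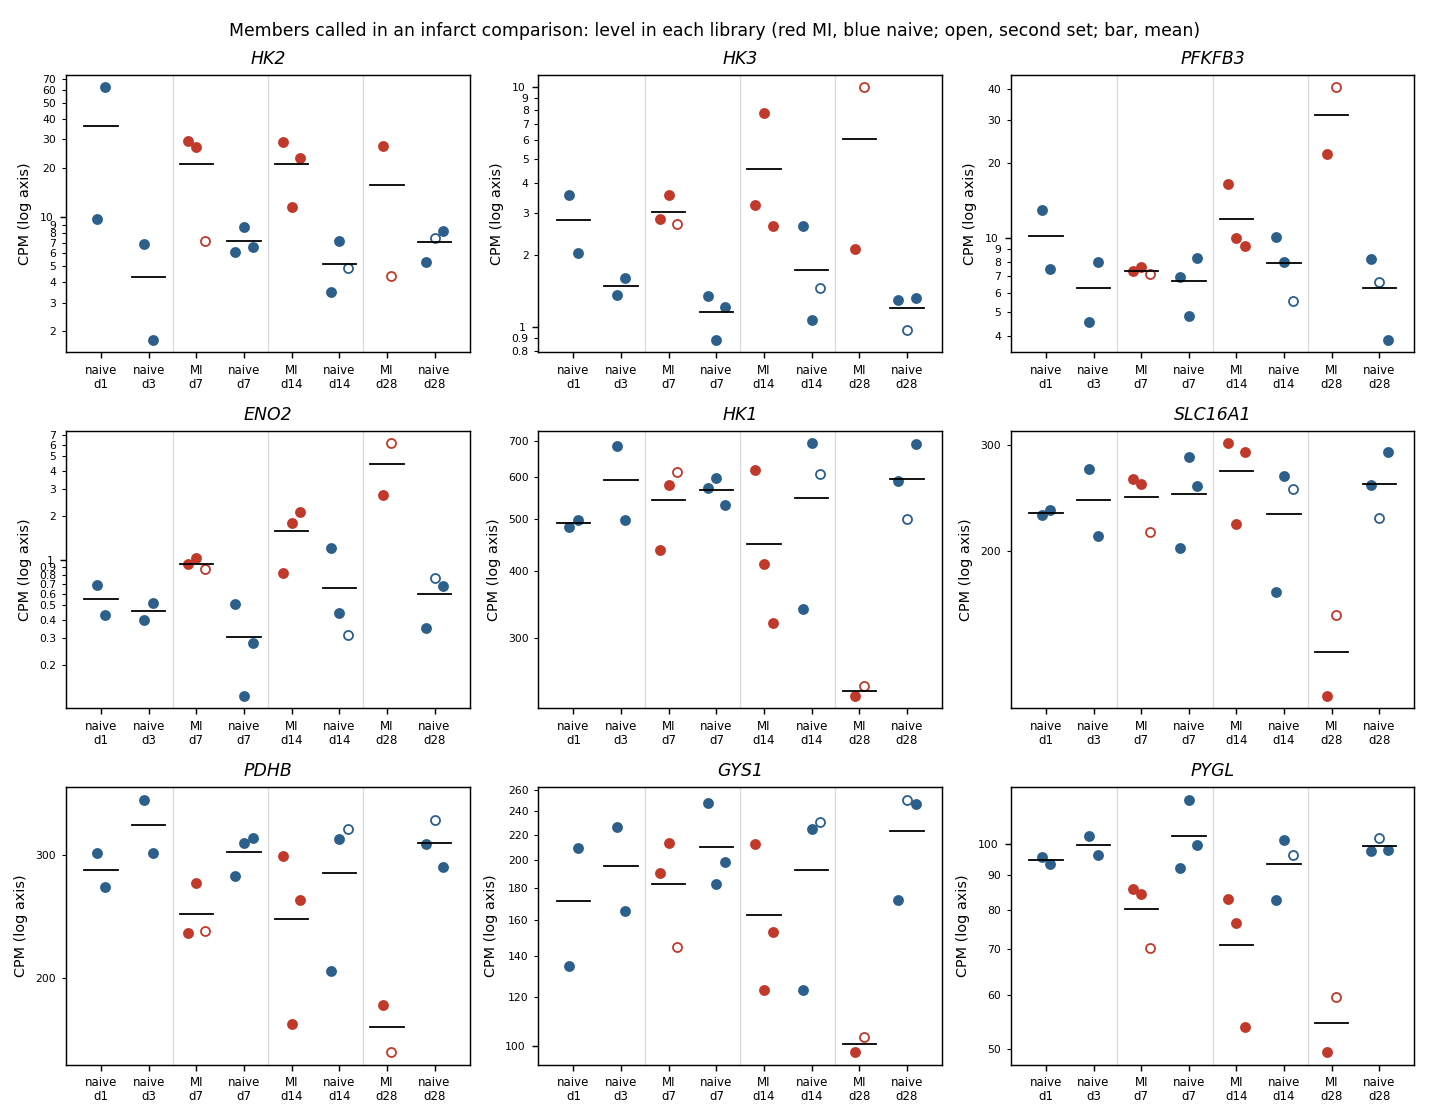
Level of the 9 members called in an infarct comparison, as CPM on a log axis, in each library of the 8 groups (red MI, blue naive, open circles for the second set, bars for group means). HK2 is high in 6 of 8 MI libraries, HK3, PFKFB3 and ENO2 are highest in MI day 28 replicate 2, and HK1, SLC16A1, PDHB, GYS1 and PYGL are lowest in MI libraries, those of day 28 in particular.

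The bases before the transcription start of HK2 and HK1 are shown because HK2 was called higher on the mean over days and HK1 lower on day 28. They were read from the RefSeq annotation of Sscrofa11.1, the genome build named for the files, as the 250 bases upstream of the start at chr3:68231188-68231437 on the minus strand for HK2 and chr14:72383078-72383327 on the plus strand for HK1. Capitals mark ACGTG, the core letters of the hypoxia response element, on either strand.
HK2: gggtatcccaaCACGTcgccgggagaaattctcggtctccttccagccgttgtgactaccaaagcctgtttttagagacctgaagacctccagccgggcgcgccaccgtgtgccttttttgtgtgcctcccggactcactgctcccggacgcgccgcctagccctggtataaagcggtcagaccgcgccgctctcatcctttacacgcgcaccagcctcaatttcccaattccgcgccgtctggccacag
HK1: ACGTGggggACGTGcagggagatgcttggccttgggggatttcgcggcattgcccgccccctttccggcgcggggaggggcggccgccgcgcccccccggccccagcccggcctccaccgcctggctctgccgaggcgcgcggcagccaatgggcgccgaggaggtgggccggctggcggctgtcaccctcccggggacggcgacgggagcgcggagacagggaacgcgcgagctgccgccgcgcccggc
The HK2 window held 1 match and the HK1 window held 2. Among windows of this length, 13 of 39 member genes with an annotated start (33.3%) and 3659 of 19531 RefSeq genes (18.7%) held at least 1 ACGTG, and 4 of 39 (10.3%) against 6.39% held the E-box CACGTG, which contains ACGTG on both strands. These are letters in a window, and no binding was measured.

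Glucose phosphate isomerase (GPI) converts glucose 6-phosphate to fructose 6-phosphate. It had 411, 569.7 and 421 CPM in MI hearts on day 7, 725, 333 and 347 CPM on day 14 and 334 and 289 CPM on day 28. Naive hearts had 564 and 419.5 CPM of GPI on day 1, 494 and 408 CPM on day 3, 489.8, 403 and 434 CPM on day 7, 362, 464 and 458 CPM on day 14 and 407, 455 and 411 CPM on day 28. It was called in no comparison, although both MI values of day 28 lay below the naive ones.

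Phosphofructokinase commits the sugar to glycolysis, and its muscle form PFKM made up a median 73.4% of the step per kilobase in MI hearts and 74.8% in naive hearts. PFKM had 827, 857 and 547 CPM in MI hearts on day 7, 867, 508 and 863 CPM on day 14 and 612 and 376 CPM on day 28. In naive hearts PFKM had 884 and 568 CPM on day 1, 1121 and 845 CPM on day 3, 910.2, 672 and 824 CPM on day 7, 462, 1096 and 943 CPM on day 14 and 954, 1006 and 672 CPM on day 28. Both MI values of day 28 were below the 3 naive values, but PFKM was not called (log2 fold change -0.83, SE 0.37, adjusted p = 0.161 by edgeR). The liver form PFKL ranged from 65.8 to 251 CPM and the platelet form PFKP from 60 to 173 CPM over all libraries, and neither was called in any comparison.

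PFKFB enzymes make and degrade fructose 2,6-bisphosphate, the strongest activator of phosphofructokinase, and PFKFB3 is the inducible form with the highest kinase activity. PFKFB3 had 21.9 and 40.7 CPM in MI hearts on day 28, against 8.24, 6.62 and 3.88 CPM in naive hearts. This 5.01-fold difference (log2 2.32, SE 0.39, adjusted p = 0.0108 by edgeR) had the smallest adjusted p of the members on day 28, and the 2 MI values were the 2 highest of the series. It stayed called in 4 of the 5 fits without 1 library (log2 fold changes 1.84 to 2.73) and without the second set (1.87, adjusted p = 0.0388), and had an adjusted p of 0.0529 without naive replicate 3. On the earlier days PFKFB3 overlapped between groups, with 7.35, 7.59 and 7.11 CPM in MI and 6.95, 4.85 and 8.3 CPM in naive hearts on day 7, and 16.4, 9.97 and 9.26 CPM in MI and 10.1, 8.01 and 5.55 CPM in naive hearts on day 14. Naive hearts of day 1 had 12.9 and 7.51 CPM and those of day 3 4.57 and 8 CPM. The MI effect on PFKFB3 on day 28 minus that on day 7 was 2.19 on the log2 scale (SE 0.52), which was not called by edgeR (adjusted p = 0.0895). On the mean over days PFKFB3 was called at 2.02-fold (log2 1.02, SE 0.21, adjusted p = 0.0187), in all 17 fits without 1 library but not without the second set (0.80, adjusted p = 0.0946).

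PFKFB4 was the most abundant of these enzymes per kilobase, a median 43.5% of the step in MI hearts and 42.4% in naive hearts. It had 11.5, 8.83 and 22.5 CPM in MI hearts on day 7, against 7.03, 4.08 and 7.32 CPM in naive hearts, without overlap but not called (log2 fold change 1.22, SE 0.37, adjusted p = 0.198 by edgeR). MI hearts had 7.64, 12.7 and 9.52 CPM of PFKFB4 on day 14 and 15.1 and 18.8 CPM on day 28. The other naive hearts had 10.3 and 6.19 CPM on day 1, 9.39 and 9.82 CPM on day 3, 11.8, 6.75 and 11.4 CPM on day 14 and 8.36, 16.5 and 15.1 CPM on day 28. PFKFB2, the heart form, ranged from 8.78 to 26.6 CPM and was not called. Before division by exon length PFKFB2 was above PFKFB4. It averaged 18.1 CPM in MI and 18.6 CPM in naive hearts, against 13.3 and 9.53 CPM for PFKFB4. PFKFB1, the liver and muscle form, was at 0 to 0.0714 CPM in all libraries but MI day 28 replicate 1, which had 0.544 CPM, and was not tested.

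Aldolase splits the 6-carbon sugar, and ALDOA, the muscle form, was a median 98.2% of the step per kilobase in MI hearts and 97.5% in naive hearts. ALDOA had 3056, 4114 and 2631 CPM in MI hearts on day 7, 6097, 2835 and 2897 CPM on day 14 and 4246 and 2004 CPM on day 28. Naive hearts held 4352 and 3065 CPM on day 1, 3418 and 2712 CPM on day 3, 4121, 2339 and 2885 CPM on day 7, 2772, 3241 and 3591 CPM on day 14 and 2908, 3789 and 2842 CPM on day 28. MI day 14 replicate 1 had the most and MI day 28 replicate 2 the least of ALDOA, so the MI hearts enclosed the naive range. ALDOC, the brain form, ranged from 5.71 to 117 CPM, and neither was called.

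The row named TPI1, triose phosphate isomerase, held only 531 reads in all and 0.124 to 0.931 CPM, far below its neighbours in the pathway. It had 0.575 and 0.931 CPM in MI hearts on day 28, against 0.202, 0.167 and 0.254 CPM in naive hearts, and was not called by edgeR (adjusted p = 0.0908), while DESeq2 gave an adjusted p of 0.0373. On day 7 it had 0.349, 0.628 and 0.172 CPM in MI and 0.433, 0.124 and 0.342 CPM in naive hearts, on day 14 0.37, 0.518 and 0.491 CPM in MI and 0.606, 0.31 and 0.225 CPM in naive hearts, and in the youngest naive hearts 0.306 and 0.224 CPM (day 1) and 0.224 and 0.649 CPM (day 3). Whether this row holds all reads of the gene cannot be read from the table.

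GAPDH, the next enzyme, was among the highest members per kilobase, with 1621 ± 476 CPM per kilobase in MI hearts (SD, n = 8) and 1396 ± 224 in naive hearts (SD, n = 13). Its CPM in MI hearts were 6515, 9274 and 5326 on day 7, 9583, 7699.7 and 7588 on day 14 and 10929 and 4270.2 on day 28. Naive hearts had 8581 and 5659 CPM on day 1, 6118 and 5825 CPM on day 3, 8314, 5530.3 and 7095 CPM on day 7, 6758, 6226 and 7144 CPM on day 14 and 5912, 7263 and 5180.2 CPM on day 28. The 2 MI libraries of day 28 were the highest and the lowest of the whole series for GAPDH, and on day 14 the MI values lay above the naive ones, but GAPDH was called in no comparison. PGK1, phosphoglycerate kinase, makes the first ATP of the lower part of the pathway. PGK1 had 370.3, 497 and 174 CPM in MI hearts on day 7, 728, 242 and 237 CPM on day 14 and 192 and 157 CPM on day 28. Against these, naive hearts had 446, 481 and 497 CPM of PGK1 on day 7, 292, 440 and 286 CPM on day 14 and 402, 335 and 467 CPM on day 28, with 579.8 and 418 CPM on day 1 and 515 and 348 CPM on day 3. PGK1 was not called on day 28 (log2 fold change -1.20, SE 0.46, adjusted p = 0.111 by edgeR), where both MI values lay below the naive ones.

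Phosphoglycerate mutase has a widely expressed form, PGAM1, and a muscle form, PGAM2. PGAM1 was the larger in both conditions per kilobase, at a median 68.8% of the step in MI hearts and 78% in naive hearts. PGAM1 had 574, 587 and 254 CPM in MI hearts on day 7, 761, 276 and 323 CPM on day 14 and 114 and 267 CPM on day 28. Naive hearts had 1039 and 648 CPM of PGAM1 on day 1, 1031 and 481 CPM on day 3, 584, 779.6 and 698 CPM on day 7, 365, 561 and 364 CPM on day 14 and 588, 395 and 976 CPM on day 28. On day 28 both MI values were below all naive values, but edgeR did not call PGAM1 (log2 fold change -1.78, SE 0.55, adjusted p = 0.0572), while DESeq2 did (adjusted p = 0.0115). PGAM2 ranged from 124 to 323 CPM and was not called.

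Enolase makes phosphoenolpyruvate, through the ubiquitous form ENO1, the neuronal form ENO2 and the muscle form ENO3. ENO3 was a median 95.0% of enolase RNA per kilobase in MI hearts and 95.2% in naive hearts, ENO1 was 5.01% and 4.80%, and ENO2 was 0.0343% and 0.0119%. The ENO2 row held only 1559 reads over all libraries, so its fold changes rest on low counts, those of naive hearts in particular. ENO2 had 2.73 and 6.11 CPM in MI hearts on day 28, against 0.353, 0.762 and 0.677 CPM in naive hearts. The 7.42-fold difference (log2 2.89, SE 0.63, adjusted p = 0.0215 by edgeR) was lost in 4 of the 5 fits without 1 library, with log2 fold changes between 2.22 and 3.38, and without the second set (2.42, adjusted p = 0.0801). On day 7 ENO2 had 0.947, 1.04 and 0.871 CPM in MI and 0.514, 0.124 and 0.278 CPM in naive hearts, without overlap, and on day 14 0.827, 1.78 and 2.13 CPM in MI and 1.21, 0.442 and 0.315 CPM in naive hearts, where the highest naive value exceeded the lowest MI value. Averaged over days ENO2 was 3.82-fold higher in MI hearts (log2 fold change 1.93, SE 0.34, adjusted p = 0.0144), in all 17 fits without 1 library and also without the second set (1.68, adjusted p = 0.0445). Naive hearts had 0.68 and 0.428 CPM of ENO2 on day 1 and 0.401 and 0.519 CPM on day 3. Of the Schwann and nerve list, 0 of 4 genes were called on day 28 by edgeR, and its summed level was 38.7 and 3.77 CPM in MI hearts of that day, against 9.57, 9.79 and 4.11 CPM in naive hearts. The library with the most ENO2, MI day 28 replicate 2, had the highest macrophage sum of all 21 libraries, 2898 CPM. Its sums of the fibroblast (20119 CPM), lymphocyte (154 CPM) and neutrophil (38.9 CPM) lists were also the highest, and its cardiomyocyte sum (40567 CPM) the lowest. MI day 28 replicate 1 differed the other way for fibroblast genes, with a sum of 1750 CPM. That library had the highest sums of the adipocyte (641 CPM) and smooth muscle and pericyte (1598 CPM) lists. The part of any of these cells in the ENO2 result was not tested.

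ENO3 had 2117, 2245 and 2009 CPM in MI hearts on day 7, 2379.8, 2287 and 3023 CPM on day 14 and 3921 and 1383 CPM on day 28. Naive hearts carried 2366 and 1657 CPM on day 1, 1926 and 2252 CPM on day 3, 2628, 2111 and 2114 CPM on day 7, 2004, 2645 and 2471 CPM on day 14 and 2767, 2648 and 1654 CPM on day 28. The highest and lowest ENO3 values were the 2 MI libraries of day 28. ENO1 ranged from 106 to 318 CPM, and neither ENO1 nor ENO3 was called in any comparison. The 250 bases before the starts of ENO2 (chr5:63809068-63809317, minus strand) and ENO1 (chr6:69401665-69401914, minus strand) are set side by side as the enolase that rose and the ubiquitous form, which was not called, with ACGTG on either strand in capitals.
ENO2: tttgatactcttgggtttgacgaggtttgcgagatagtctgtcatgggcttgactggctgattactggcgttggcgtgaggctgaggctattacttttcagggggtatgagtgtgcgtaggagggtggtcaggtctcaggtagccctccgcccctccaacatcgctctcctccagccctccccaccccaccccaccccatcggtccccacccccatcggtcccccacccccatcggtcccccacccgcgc
ENO1: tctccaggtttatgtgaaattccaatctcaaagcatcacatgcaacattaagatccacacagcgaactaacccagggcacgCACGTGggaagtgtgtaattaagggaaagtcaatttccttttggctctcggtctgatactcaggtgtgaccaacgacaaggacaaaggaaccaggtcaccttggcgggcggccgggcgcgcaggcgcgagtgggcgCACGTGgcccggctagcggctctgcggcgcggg
The ENO2 window held 0 matches, and the ENO1 window held 4, which make up 2 copies of CACGTG.

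Pyruvate kinase (PKM, whose muscle and embryonic splice forms are not separated in counts per gene) yields pyruvate. PKM had 1966, 2367 and 1247 CPM in MI hearts on day 7, 3296, 1396 and 1600.2 CPM on day 14 and 885 and 1112 CPM on day 28. Naive hearts had 2758 and 2045 CPM of PKM on day 1, 2775 and 2055 CPM on day 3, 2884, 2129 and 2514 CPM on day 7, 1706, 2406 and 1709 CPM on day 14 and 2144, 1997 and 2241 CPM on day 28. Both MI values of day 28 were below every other library, and edgeR did not call PKM (log2 fold change -1.09, SE 0.36, adjusted p = 0.0682).

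Lactate dehydrogenase interconverts pyruvate and lactate. LDHB, the heart subunit, was a median 95.3% of the step per kilobase in MI hearts and 96.7% in naive hearts. LDHB had 1607, 1402 and 1870.2 CPM in MI hearts on day 7, 1522, 1411 and 1285 CPM on day 14 and 1511 and 1393 CPM on day 28. In naive hearts LDHB stood at 1632 and 2553 CPM on day 1, 1402 and 1753 CPM on day 3, 1629.5, 2459.8 and 1791 CPM on day 7, 1533, 1752 and 1879 CPM on day 14 and 2056, 2050 and 1231 CPM on day 28. All 3 MI values of day 14 were below the naive ones, with no call. LDHA, the muscle subunit and a known hypoxia target, ran from 56.6 to 593 CPM, with 593, 226 and 117 CPM in MI hearts on day 14, against 88, 153 and 66.1 CPM in naive hearts. That difference was not called (log2 fold change 1.61, SE 0.60, adjusted p = 0.872 by edgeR).

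Monocarboxylate carriers move lactate and pyruvate across the cell membrane: SLC16A1 (MCT1) is the main form of heart, and SLC16A3 (MCT4) is the form of glycolytic, lactate-exporting cells. SLC16A1 was a median 94.6% of the pair per kilobase in MI hearts and 95.8% in naive hearts. It had 116 and 157 CPM in MI hearts on day 28, the 2 lowest values of the series, against 257, 227 and 292 CPM in naive hearts. The level was 0.528 times that of naive hearts (log2 fold change -0.92, SE 0.24, adjusted p = 0.0331 by edgeR), called in 1 of the 5 fits without 1 library (log2 fold changes -1.14 to -0.70) and without the second set (-1.24, adjusted p = 0.0374). SLC16A1 overlapped on day 7, with 263, 258 and 216 CPM in MI and 202, 286 and 257 CPM in naive hearts, and on day 14, with 301, 222 and 291 CPM in MI and 171, 266 and 254 CPM in naive hearts. Naive hearts had 229.5 and 234 CPM on day 1 and 273 and 212 CPM on day 3. SLC16A3 ranged from 4.79 to 65 CPM, highest in MI day 14 replicate 1, and was not called.

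Pyruvate dehydrogenase turns pyruvate into acetyl-CoA, with PDHA1 and PDHB as the subunits of its first enzyme. PDHB had 183 and 157 CPM in MI hearts on day 28, against 311, 337 and 288 CPM in naive hearts, and the values did not overlap. The MI level was 0.546 times the naive one (log2 fold change -0.87, SE 0.24, adjusted p = 0.0388 by edgeR), and the call was lost in each of the 5 fits without 1 library (adjusted p 0.0633 to 0.139, log2 fold changes -0.97 to -0.74) and without the second set (-0.70, adjusted p = 0.202). On day 7 PDHB had 232, 274 and 234 CPM in MI and 280, 312 and 317 CPM in naive hearts, also without overlap. On day 14 the groups overlapped, with 299, 172 and 258 CPM in MI and 205, 316 and 327 CPM in naive hearts, and younger naive hearts had 302 and 270 CPM on day 1 and 360.1 and 302 CPM on day 3. Averaged over days PDHB fell by 0.46 on the log2 scale in MI hearts (SE 0.12, adjusted p = 0.0455), called in 3 of 17 fits without 1 library and not without the second set (-0.36, adjusted p = 0.208). PDHA1 had 1109, 1027 and 899 CPM in MI hearts on day 7, 1246, 643 and 845 CPM on day 14 and 811 and 509 CPM on day 28. Naive hearts had 903 and 1127 CPM of PDHA1 on day 1, 1510.1 and 1267 CPM on day 3, 1023, 1059 and 1028 CPM on day 7, 601, 1331 and 1647 CPM on day 14 and 1235, 1549 and 1229 CPM on day 28. Both MI values of day 28 lay below the naive ones, and PDHA1 was not called (log2 fold change -1.02, SE 0.36, adjusted p = 0.0838).

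The kinases PDK1 to PDK4 switch pyruvate dehydrogenase off, and PDK4, which fasting and fatty acids raise, was the most abundant, at a median 71.2% of the step per kilobase in MI hearts and 67.6% in naive hearts. PDK4 had 239.8, 184 and 863 CPM in MI hearts on day 7, 25.9, 488 and 903 CPM on day 14 and 816 and 154 CPM on day 28. Naive hearts had 227 and 12.7 CPM of PDK4 on day 1, 902 and 1046 CPM on day 3, 443, 375 and 382 CPM on day 7, 313, 257 and 365 CPM on day 14 and 346, 305 and 396 CPM on day 28. The MI pigs of day 14 thus spanned 25.9 to 903 CPM, naive hearts of days 7 to 28 stayed between 257 and 443 CPM, and PDK4 was called in no comparison. PDK1 ranged from 38.7 to 202 CPM, PDK2 from 39.2 to 132 CPM and PDK3 from 23.7 to 53.5 CPM, with no call.

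Glycogen is built by UGP2, GYS1 and GBE1 and broken down by the phosphorylases. GYS1, the muscle glycogen synthase, had 97.9 and 104 CPM in MI hearts on day 28, the 2 lowest values of the series, against 173, 251 and 246 CPM in naive hearts. The MI level was 0.452 times the naive one (log2 fold change -1.15, SE 0.31, adjusted p = 0.0404 by edgeR), a call lost in each of the 5 fits without 1 library (adjusted p 0.0520 to 0.121, log2 fold changes -1.30 to -1.03) and without the second set (-1.09, adjusted p = 0.137). GYS1 overlapped between groups on day 7, with 191, 213 and 145 CPM in MI and 247, 183 and 199 CPM in naive hearts, and on day 14, with 213, 123 and 153 CPM in MI and 123, 225 and 230.2 CPM in naive hearts. It had 135 and 209 CPM in naive hearts on day 1 and 226 and 166 CPM on day 3.

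PYGL, the liver-type phosphorylase, had the smallest standard error of the called members in both comparisons. It had 49.5 and 59.6 CPM in MI hearts on day 28, against 97.5, 102 and 97.9 CPM in naive hearts. On day 14 PYGL had 82.9, 76.5 and 53.7 CPM in MI and 82.6, 101 and 96.2 CPM in naive hearts, and on day 7 85.8, 84.3 and 70.2 CPM in MI and 92.3, 116 and 99.6 CPM in naive hearts. Days 7 and 28 did not overlap, and on day 14 only MI replicate 1, at 82.9 CPM, exceeded the lowest naive value of 82.6 CPM. The MI level was 0.55 times the naive one on day 28 (log2 fold change -0.86, SE 0.19, adjusted p = 0.0208 by edgeR), called in 2 of the 5 fits without 1 library (-0.98 to -0.71) and without the second set (-0.97, adjusted p = 0.0467). Averaged over days it was 0.689 times the naive one (log2 fold change -0.54, SE 0.10, adjusted p = 0.0144), called in all 17 fits without 1 library and without the second set (-0.54, adjusted p = 0.0410). Naive hearts had 95.7 and 93.4 CPM of PYGL on day 1 and 103 and 96.3 CPM on day 3.

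The brain-type PYGB was the most abundant phosphorylase per kilobase, at a median 50.5% in MI hearts and 51.2% in naive hearts, ahead of the muscle-type PYGM at 37.4% and 35.02% and PYGL at 10.98% and 13.1%. PYGB had 799, 1026 and 1026 CPM in MI hearts on day 7, 651, 395 and 658 CPM on day 14 and 332 and 372 CPM on day 28. Naive hearts had 431 and 617 CPM of PYGB on day 1, 1028 and 644 CPM on day 3, 877, 555 and 694 CPM on day 7, 334, 937 and 1125 CPM on day 14 and 746, 1059 and 839 CPM on day 28. Its MI values were below the naive ones on day 28 without a call (log2 fold change -1.32, SE 0.41, adjusted p = 0.0565 by edgeR). The effect on day 28 minus that on day 7 was -1.75 (SE 0.53, adjusted p = 0.133 by edgeR), which DESeq2 called (adjusted p = 0.0434). PYGM ranged from 150.2 to 459.9 CPM without a call.

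UGP2, which makes UDP-glucose, had 49.1, 54.9 and 59.7 CPM in MI hearts on day 7, 66.9, 60.4 and 59.9 CPM on day 14 and 94.5 and 59.3 CPM on day 28. Naive hearts had 57.3 and 67.7 CPM of UGP2 on day 1, 50.7 and 57.8 CPM on day 3, 59.8, 69.3 and 70.9 CPM on day 7, 50.2, 68.7 and 79.7 CPM on day 14 and 65.7, 68.6 and 41.1 CPM on day 28. The MI values of day 7 lay below the naive ones, and UGP2 was not called. The branching enzyme GBE1 had 67.4, 70.4 and 63.6 CPM in MI hearts on day 7, 76.5, 45.7 and 81.7 CPM on day 14 and 54.8 and 37.2 CPM on day 28. For GBE1 the naive hearts had 58.5 and 78.6 CPM on day 1, 101 and 70.6 CPM on day 3, 57.3, 73.1 and 63.7 CPM on day 7, 38, 72.2 and 84.2 CPM on day 14 and 74.3, 62.8 and 89.8 CPM on day 28. MI hearts of day 28 were below the naive ones with no call (log2 fold change -0.72, SE 0.31, adjusted p = 0.152 by edgeR).

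Some libraries held the highest or lowest level of many members. Of 37 members (the 34 tested by name other than TPI1, and ALDOA, LDHA and PDHA1), MI day 14 replicate 1 held the highest level of 10: ALDOA, ALDOC, GPI, LDHA, PDK1, PFKFB2, PGK1, PKM, SLC16A1 and SLC16A3. It had 593 CPM of LDHA, against 226 and 117 CPM in the other MI hearts of that day, and 25.9 CPM of PDK4, against 488 and 903 CPM. Naive day 1 replicate 2 was the one library with less PDK4, 12.7 CPM, and it had the most HK2, 62.4 CPM, and the second most SLC16A3, 41.6 CPM. MI day 28 replicates 1 and 2 held the lowest level of 11 and 12 of the 37. The same counts were not made over all genes, so they cannot be read as particular to the pathway. Without MI day 14 replicate 1, 10 members were called on the mean over days, 3 higher and 7 lower. Calls over all genes numbered 1082 in that fit and 681 with every library. The members HK1, PGK1, PGAM1, PKM and GYS1 were added, all lower in MI hearts, and HK2 had an adjusted p of 0.0526.

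**Figure D3:**
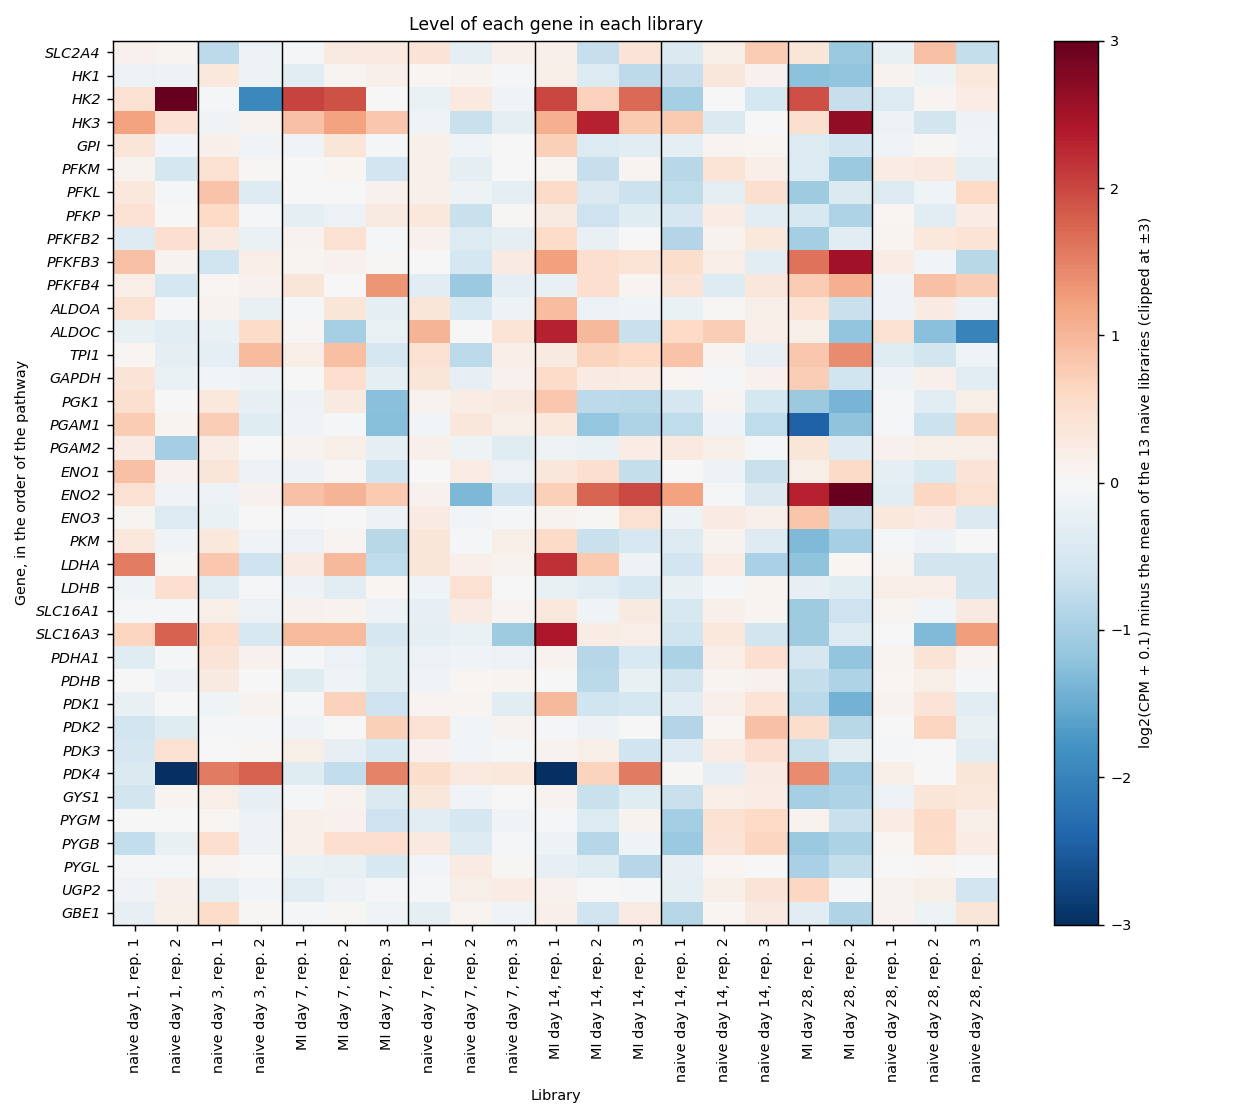
Level of each member in each of the 21 libraries as log2(CPM + 0.1) minus the mean of the 13 naive libraries, with members ordered by step and libraries by group. MI day 14 replicate 1 stands out as high for ALDOC, LDHA and SLC16A3 and low for PDK4, and MI day 28 replicates 1 and 2 hold the lowest level of 11 and 12 members. Such counts were not made over all genes.

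The isoform mix at a step was tested as the log2 ratio of the CPM of a pair of isoforms in each library, which needs no scaling between libraries. Of 11 ratios, 2 differed between MI and naive hearts of the same days in an exact permutation test within days (two-sided, 4000 arrangements, smallest possible p 0.00025, adjusted over the 11). HK1 to HK2 was lower in MI hearts by 1.87 on the log2 scale (exact p = 0.001, adjusted p = 0.0055), with differences of -1.40 on day 7, -2.26 on day 14 and -1.96 on day 28. Its median was 4.43 in the 8 MI hearts (3.10 to 6.41) and 6.53 in the 9 naive hearts (6.06 to 6.96). ENO2 to ENO3 was higher in MI hearts by 1.995 (exact p = 0.00075, adjusted p = 0.0055), with differences of 1.90 on day 7, 1.28 on day 14 and 2.81 on day 28. Its median was -10.77 in MI hearts (-11.48 to -7.82) and -12.52 in naive hearts (-13.92 to -10.68), so ENO2 remained a small part of enolase RNA everywhere. The value of -13.92 was that of naive day 7 replicate 2, which had 0.124 CPM of ENO2, the lowest level of all libraries. Without the second set, HK1 to HK2 differed by -2.59 and ENO2 to ENO3 by 1.45, and ENO2 to ENO3 no longer passed. That setting left only replicate 1 among the MI hearts of day 28. It also had fewer arrangements and so a larger smallest possible p, and its p-values cannot be set beside those of the full data.

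The other 9 ratios did not pass. The nearest were PGAM1 to PGAM2 (-0.75, exact p = 0.0695, adjusted p = 0.206) and SLC16A3 to SLC16A1 (0.74, exact p = 0.0747, adjusted p = 0.206), followed by LDHA to LDHB (0.64, adjusted p = 0.248) and PYGL to PYGM (-0.36, adjusted p = 0.248). SLC16A3 to SLC16A1 passed without naive day 28 replicate 3 (0.92, exact adjusted p = 0.0458), and PGAM1 to PGAM2 passed without MI day 14 replicate 1 (-0.92, exact adjusted p = 0.022). PFKP to PFKM (0.15), PFKL to PFKM (0.15), ALDOC to ALDOA (-0.09), ENO1 to ENO3 (0.19) and PYGB to PYGM (-0.22) also did not pass, with exact adjusted p between 0.511 and 0.830.

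**Figure D4:**
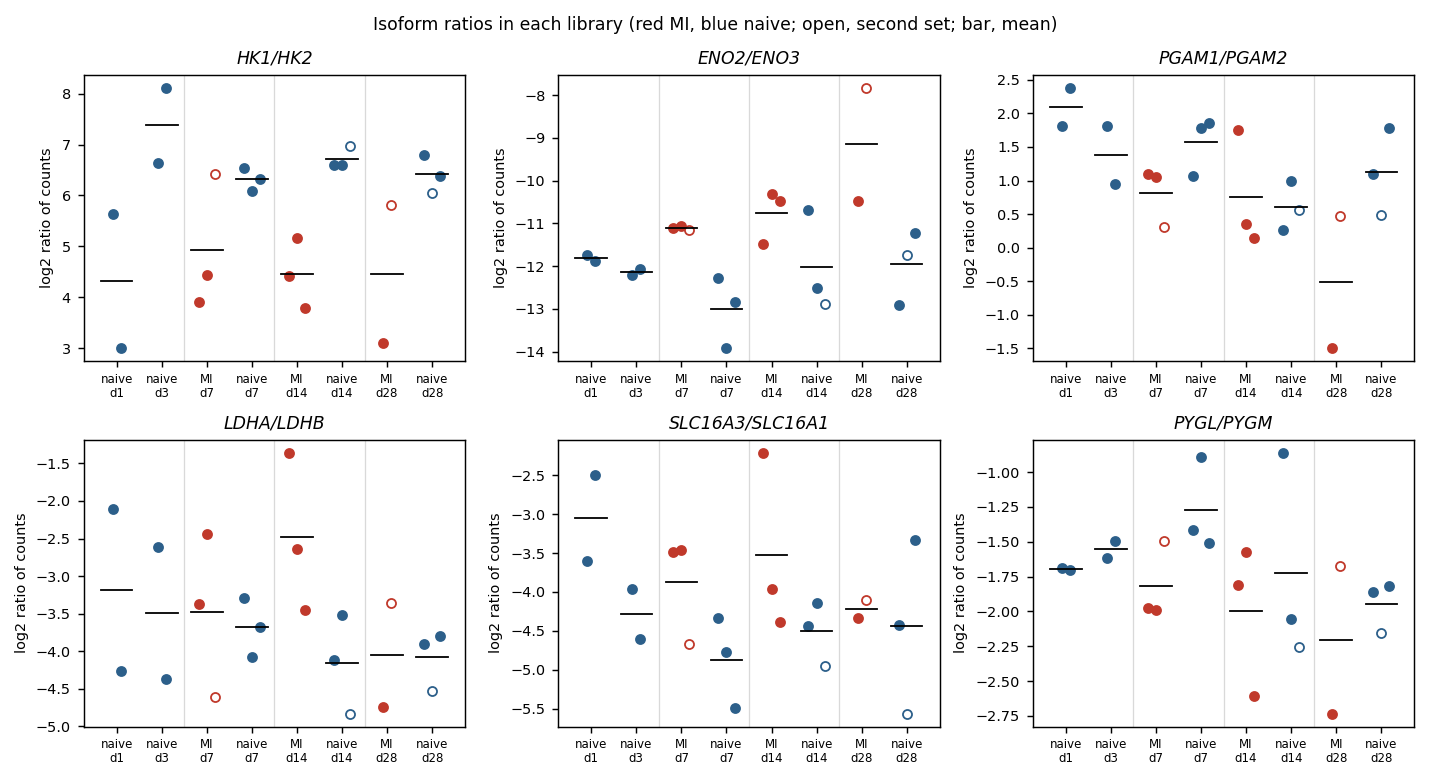
Log2 ratio of isoform CPM in each library for the isoform pairs, by group (red MI, blue naive). HK1 to HK2 has a lower median and ENO2 to ENO3 a higher median in MI hearts than in naive hearts of the same days, with overlap in both. Naive day 1 replicate 2, at 3.00, has the lowest HK1 to HK2 of all libraries.

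Age in naive hearts left no called change in the pathway. The comparisons of day 7 with day 1, of day 28 with day 7 and of day 28 with day 1 each had 0 members called by edgeR and by DESeq2, where edgeR called 0% of all genes in each and DESeq2 called 0.0584%, 0.29% and 0% of those it tested. An unadjusted p under 0.05 was found for 3 members (HK2, HK3 and SLC16A3, all lower on day 7 than on day 1, background 5.44%), for 1 (PFKFB4, higher on day 28 than on day 7, background 7.18%) and for 2 (HK2 and HK3, lower on day 28 than on day 1, background 5.27%). Values did not overlap for 4 members higher and 4 lower on day 7 than on day 1 (background 11.8% and 12.9%, 24.7% together), for 2 higher and 0 lower on day 28 than on day 7 (10.6% and 7.76%, 18.3% together), and for 6 higher and 2 lower on day 28 than on day 1 (12.6% and 12.5%, 25.1% together). The fold change of HK2 was -2.36 on the log2 scale for day 28 against day 1 (SE 0.78, adjusted p = 0.867 by edgeR), and rests on the single day 1 value of 62.4 CPM beside 9.75 CPM. Over the 13 naive libraries, 0 of the 11 isoform ratios correlated with log2 age after adjustment. PGAM1 to PGAM2 came nearest (Pearson r = -0.60, permutation p = 0.0318, adjusted p = 0.227, and Spearman rho = -0.58, permutation p = 0.0419, adjusted p = 0.385), and r was -0.34 without the 2 libraries of most extreme age. HK1 to HK2 had r = 0.45 (adjusted p = 0.227) and r = -0.44 without those 2, and LDHA to LDHB had r = -0.46 (adjusted p = 0.227) and -0.40 without them. Without naive day 28 replicate 3, 4 ratios passed: ENO1 to ENO3, PGAM1 to PGAM2, PFKP to PFKM and SLC16A3 to SLC16A1.

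Neighbouring pathways were read from lists drawn up beside the members. Of all genes tested, edgeR called 4.47% higher and 2.38% lower on day 28, and 2.36% higher and 2.07% lower on the mean over days. The calls in these lists come from the fit to all libraries and were not refitted without the second set. The malate-aspartate shuttle carries the electrons of glycolytic NADH into mitochondria. Of its 7 listed genes, 3 were called lower in MI hearts both on day 28 and on the mean over days. On day 28 the cytosolic malate dehydrogenase MDH1 averaged 398 CPM in MI hearts against 1215 CPM in naive ones (log2 fold change -1.61, SE 0.37, adjusted p = 0.0252 by edgeR), the mitochondrial aspartate aminotransferase GOT2 averaged 290 CPM in MI hearts against 784 CPM in naive ones (-1.44, SE 0.32, adjusted p = 0.0244), and the aspartate-glutamate carrier SLC25A13 averaged 9.01 CPM in MI hearts against 23.3 CPM in naive ones (-1.37, SE 0.31, adjusted p = 0.0255). The mean effects over days were -1.04 for MDH1, -0.78 for GOT2 and -0.79 for SLC25A13. DLAT, the acetyltransferase core of pyruvate dehydrogenase, was the 1 of 6 further genes of that complex that was lower on day 28 (138 CPM in MI hearts against 332 CPM in naive ones, log2 fold change -1.26, SE 0.31, adjusted p = 0.0294), and also on the mean (-0.62, adjusted p = 0.0404). Beside these falls stood the cardiomyocyte sums given above, with 2 of 10 cardiomyocyte markers called lower on day 28 (ACTC1 and MYL2). Their part was not tested.

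Of 20 other glycogen genes tested, 2 were called lower on day 28 (2.38% of all genes). On the mean over days, 1 was called higher and 1 lower (2.36% and 2.07% of all genes). Not all of these are named here. PPP1R3B, which brings protein phosphatase 1 to glycogen, was lower on day 28 (16.4 CPM in MI hearts against 37.9 CPM in naive ones, log2 fold change -1.21, SE 0.30, adjusted p = 0.0311 by edgeR). On the mean over days GYG2, a glycogenin that primes glycogen, was higher (1.34, SE 0.35, adjusted p = 0.0415). Of 8 genes of the pentose phosphate and polyol list, 2 were called higher and 1 lower on day 28 (4.47% and 2.38% of all genes). On the mean, 1 was called higher and 1 lower. TKT, transketolase, was higher on day 28 and averaged 53.8 CPM in MI hearts against 28.1 CPM in naive ones (0.94, SE 0.27, adjusted p = 0.0449). AKR1B1, aldose reductase, was lower and averaged 46.3 CPM in MI hearts against 97.5 CPM in naive ones (-1.07, SE 0.29, adjusted p = 0.0369). On the mean over days PGD, phosphogluconate dehydrogenase, was higher (0.48, adjusted p = 0.0402) and AKR1B1 lower (-0.70, adjusted p = 0.0203).

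Of 14 other glycolytic and gluconeogenic genes tested, 2 were higher on day 28: FBP1, fructose bisphosphatase (13.1 CPM in MI hearts against 4.60 CPM in naive ones, log2 fold change 1.51, SE 0.40, adjusted p = 0.0356 by edgeR), and PC, pyruvate carboxylase (21.1 CPM in MI hearts against 5.53 CPM in naive ones, 1.93, SE 0.55, adjusted p = 0.0459). None of the 14 was called on the mean over days by edgeR. Of 24 hypoxia and glycolysis regulators, 2 were higher on day 28 and 3 on the mean, where 4.47% and 2.36% of all genes were called higher. The transcription factor MYC averaged 61.9 CPM in MI hearts against 17.8 CPM in naive ones on day 28 (1.80, SE 0.43, adjusted p = 0.0279) and the hypoxia-responsive NDRG1 averaged 58.3 CPM in MI hearts against 16.05 CPM in naive ones (1.86, SE 0.38, adjusted p = 0.0180). On the mean over days MYC (1.20), BNIP3, a mitophagy receptor and HIF target (0.85, adjusted p = 0.0442), and NDRG1 (0.79, adjusted p = 0.0403) were higher. The list's median log2 fold change was 0.17 on day 28 and 0.16 on the mean. Of 7 other sugar, lactate and pyruvate transporters, 0 were called in either comparison.

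**Figure D5:**
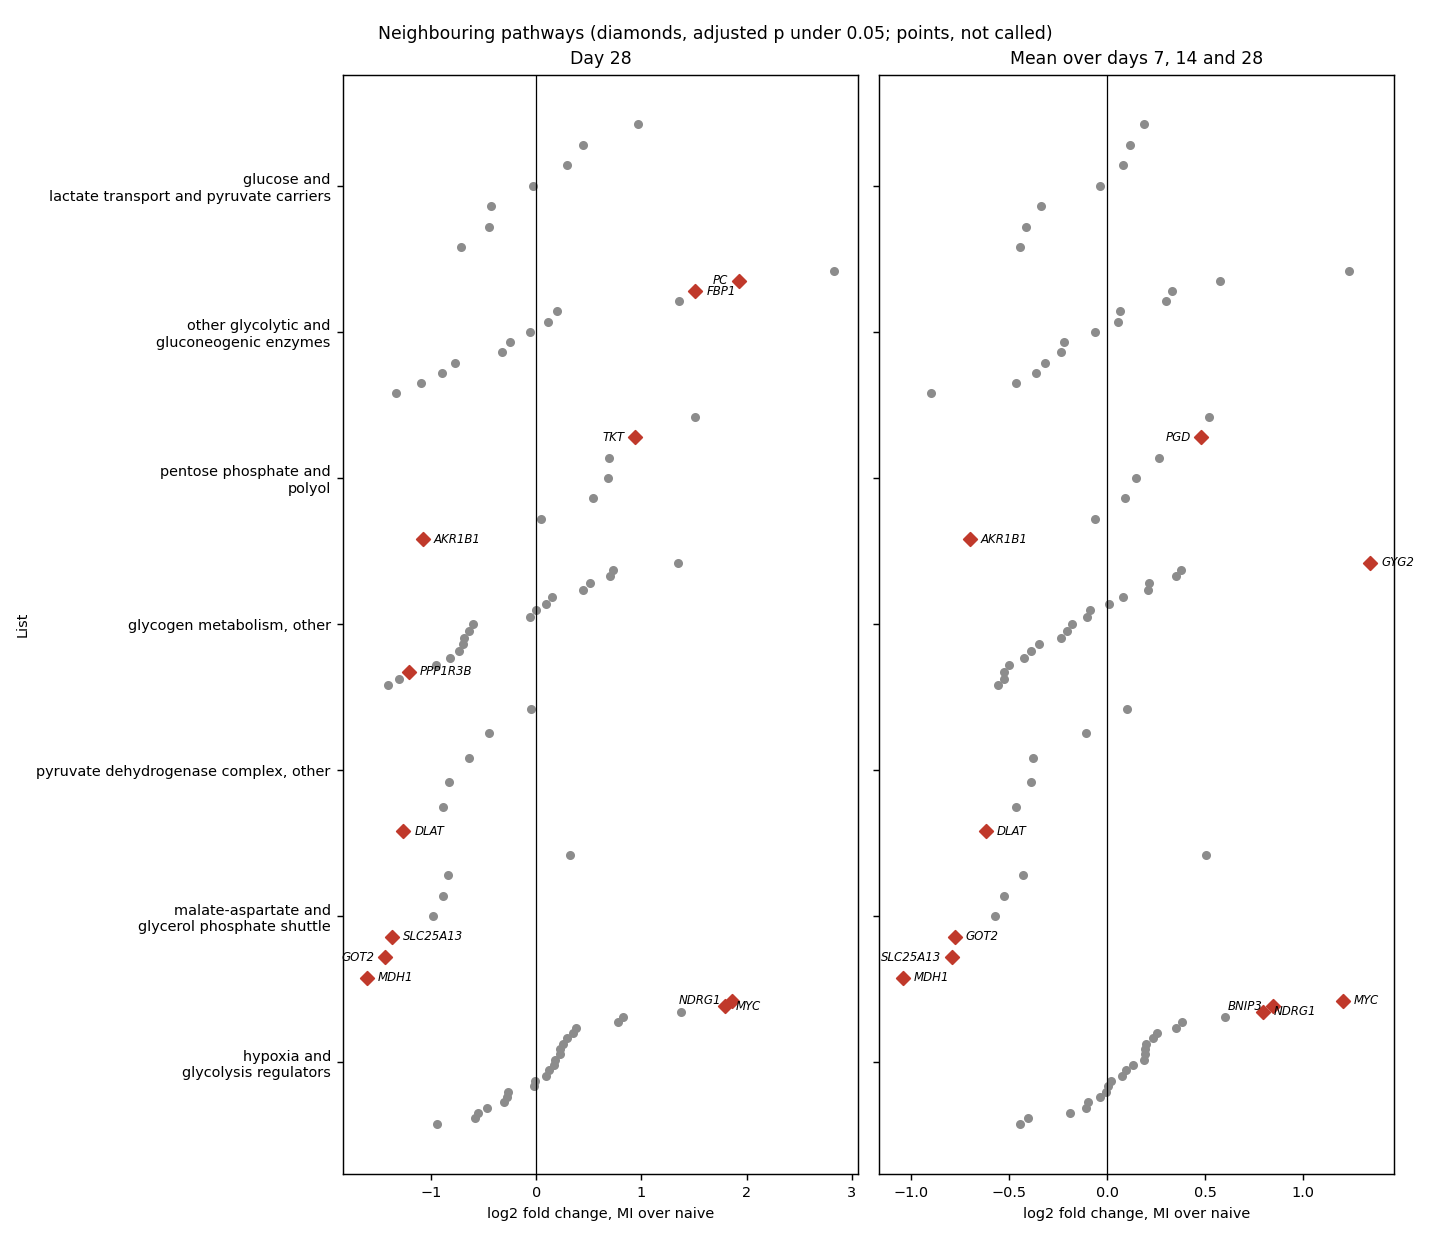
Log2 fold changes of MI over naive hearts for the genes of 7 neighbouring lists, on day 28 and on the mean over days, with red diamonds for genes called by edgeR and grey points for the others. The shuttle genes MDH1, GOT2 and SLC25A13 lie near or below -0.8 in both panels, and MYC and NDRG1 lie above 0.7 in both. The list labelled malate-aspartate and glycerol phosphate shuttle holds genes of the malate-aspartate shuttle only. PCK1, which was at 0 CPM in every naive heart of day 28, is not drawn, nor are genes that are not reported here.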

How the data were processed

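The table the authors deposited holds unnormalised counts of reads for each Ensembl gene, 1 column for each of the 21 pigs. The submitters' processing notes name Trim Galore, STAR 2.5.2, HTSeq 0.6.1, DESeq2 and the genome build Sscrofa11.1. For the annotation release and the strand setting, nothing is given in the sources used here, so reads of overlapping antisense genes, or of near-identical copies of genes such as GAPDH, PGK1, ENO1 and LDHA, may be misassigned. Pigs were grouped by their titles, and totals per library are given in the report. Replicate numbers only name libraries.

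Genes were kept with filterByExpr, scaled by TMM and fitted with glmQLFit (robust, 1 mean per group, 13 residual degrees of freedom, common dispersion 0.139) in edgeR 4.0.16 under R 4.3.3. Contrasts were tested by its two-sided quasi-likelihood F-test, p-values were adjusted by Benjamini-Hochberg over 15359 genes, and the threshold was 0.05. CPM are TMM-scaled, and errors of log2 fold changes are standard errors. Isoform ratios (0.5 counts added) were tested by exact permutation within days, and against log2 age with 100000 resamples (scipy 1.17.1), each adjusted over 11 ratios; the ratios of SLC2A1 and SLC2A3 to SLC2A4 were not computed. Levels per kilobase use the union of RefSeq exons. Alternatives were RLE scaling, no filter, DESeq2 1.42.0, a term for or removal of the second set, fits to the compared groups alone, and leaving out each library.

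The members, lists and tests were chosen with earlier results of these data known. Every member is named, with all library values for called members and the most abundant isoform of each step, and from each neighbouring list up to 3 called genes per comparison with the smallest adjusted p, except that some genes of these lists are not reported here.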

Additional observations from a re-analysis of the deposited data

How the results depend on the processing

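No paired analysis was possible because the labels identify pigs by number and give no replicate number shared between groups. RLE scaling gave the same counts of called members as TMM scaling in all 9 comparisons. On day 28, the count of 8 called members became 5 with a term for the second set, 4 without it (3 of them among the 8) and 0 in a fit to the compared groups alone. Leaving out 1 library gave 0 to 3, from 17 to 1162 of all genes being called. On the mean over days, the 6 became 3 without the second set and 4 to 10 with 1 library left out. For the MI effect of day 28 minus day 7, the 0 became 2 with DESeq2, 1 in a fit to the compared groups alone, and 0 to 1 with 1 library left out. The other contrasts had 0 members called under every alternative run. DESeq2 called 12 members on day 28 and 8 on the mean, and 1053 of all genes called on day 28 became 2216 with DESeq2. The 2 isoform ratios that differed between MI and naive hearts became 1 without the second set and 2 to 3 with 1 library left out. The 0 ratios that followed age became 0 to 4. Single genes were included here if called under any setting, or if their unadjusted edgeR p as reported was under 0.05. Ratios were included if they passed under any setting. Other members and ratios were left out, so the counts hold for this choice only. Over the 1036 included values under alternatives, 923 kept their side of the threshold, called or not, 86 lost a call, 27 gained one and 0 reversed. The cause of these changes was not tested, except that leaving out libraries also leaves fewer pigs. With 2 MI pigs on day 28, the spread there is borrowed from the other groups.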
